A study of Danio rerio with 20 samples.

Results

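The loci described here are 150 of 66128 in a table of gene expression in zebrafish hearts. They stood about as high at 1.5 days as at 3 days after cryoinjury (dpci), above every library of the other groups, and their later means lay less than 0.5 (log2) above the non-injured mean. The loci were chosen by their measured values in all 20 libraries, so the rise, the likeness of the early time points and the ceiling on the late means are descriptions and were not tested. The study compared ventricular apexes of non-injured and cryoinjured zebrafish hearts, an organ that regenerates after such an injury. Stranded total RNA was sequenced from 5 groups of 4 libraries each, namely non-injured hearts and hearts at 1.5, 3, 7 and 14 dpci.

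All groups carry the genotype label WT, and each library holds 3 to 4 apexes pooled in one tube. The study used male and female fish of 5 to 12 months, and which of its fish lines gave the apexes is not given in the sources used here. The non-injured hearts are described only as uninjured, so handling and surgery cannot be told apart from the cryoinjury itself. The tissue is bulk apex, in which more or fewer cells of a type and more or less RNA per cell cannot be told apart. The list of gene names in the table is not in the order of its values, so no locus could be given a gene, and the labelled tissue was not checked against heart markers. Loci are given by their number in the merged transcript assembly or by their rank.

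Cryoinjury kills a patch of the ventricle by freezing. In zebrafish, the first days that follow are known for clotting and fibrin deposition, for invasion by neutrophils and macrophages that clear dead cells, and for activation of the endocardium and epicardium. A fibrin- and collagen-rich scar then forms and is later resorbed while cardiomyocytes at its border divide. None of the loci is attributed to any of these processes here.

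Each value is the number of reads on a locus divided by a size factor of its library. It is not divided by transcript length, so levels are compared between libraries and not between loci. Reads could be recovered for 19 of the 20 libraries and ranged between 19349169 and 32939802 per library (median 25300568). The non-injured libraries did not sit together. On the main axis of variation, with 31.5% of the variance over all loci, non-injured replicates 1 and 2 had scores of 110 and 44.8, on the side of the 7 and 14 dpci libraries (118 to 166). Non-injured replicates 3 and 4, at −75.5 and −92.1, lay on the side of the 1.5 and 3 dpci libraries (−109 to −162). The medians and the counts of neighbouring loci below are therefore also given against each pair of them alone.

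The rule narrowed the table in steps. Of the 66128 loci, 16199 had a mean of at least 100 over the 20 libraries, and 16187 of these had a non-injured mean of at least 5. In 434 of them the lowest of the 8 early values lay above the highest of the other 12. The means of log2(value + 1) at 1.5 and 3 dpci were under 0.5 apart in 359, and in 246 both late means were less than 0.5 above the non-injured mean. Leaving out the 100 loci with the highest non-injured means removed none of the 246. The 150 with the largest difference between the early and the non-injured mean were taken, and rank 1 is the largest. The last loci taken, ranks 148, 149 and 150, had differences of 0.723, 0.722 and 0.721 (log2), and the first 3 left out had 0.718, 0.714 and 0.713. Loci on either side of this limit were therefore nearly alike, and the list has no natural end there.

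The rise of the 150 loci was moderate in size. The early mean was a median 1.93-fold above the non-injured mean, with a range of 1.65-fold to 8.72-fold and quartiles of 1.76-fold and 2.17-fold. Folds here and below are on the log2(value + 1) scale. The rise was at least 4-fold in 4 loci, at least 2-fold in 65 and under 2-fold in 85. The curve of differences against rank is steep over the first few loci and shallow over the rest.

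**Figure D1:**
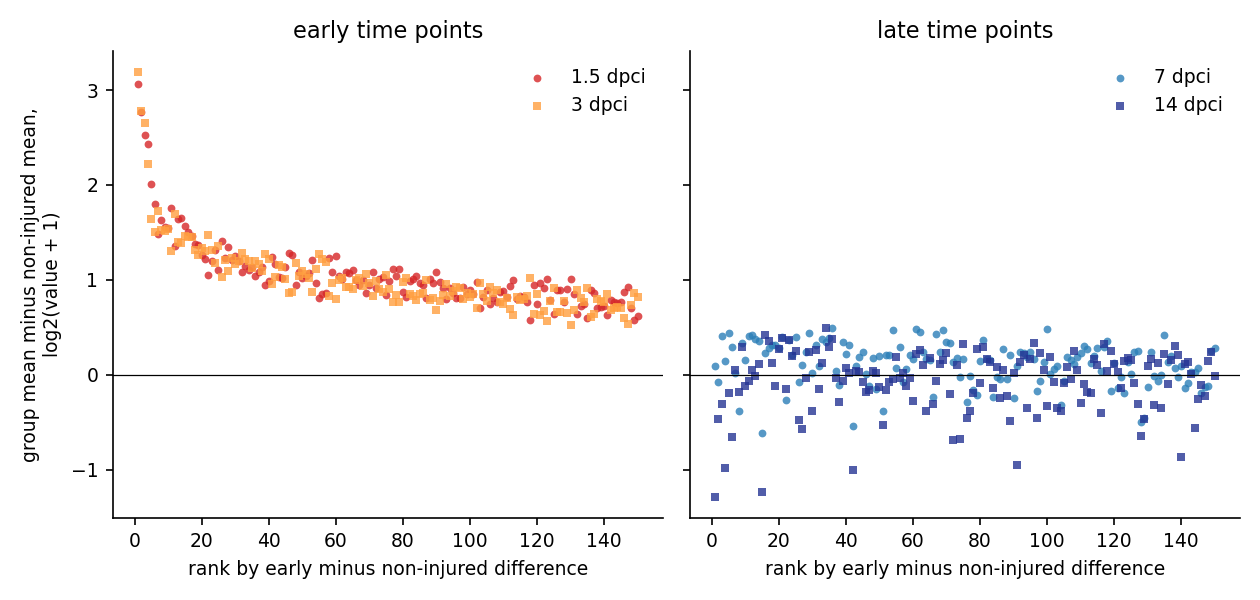
Difference from the non-injured mean on the log2(value + 1) scale (vertical axis) of each of the 150 loci against its rank in the early minus non-injured difference (horizontal axis). The left panel shows 1.5 dpci (circles) and 3 dpci (squares), where the median differences were 0.98 and 0.92, and the right panel shows 7 and 14 dpci, where the points scatter around 0 and reach −1.28 at the lowest.

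The locus with the largest rise was XLOC_008355. In the 4 non-injured libraries its values were 29.0, 21.7, 42.1 and 26.3. At 1.5 dpci they were 370, 245, 146.7 and 287, and at 3 dpci 188, 326, 481 and 187, so the lowest early library lay 1.70 (log2) above the highest of all others. At 7 dpci the values of 18, 30.7, 44.3 and 37.5 lay across the non-injured range, and at 14 dpci the values of 10.7, 7.09, 14.8 and 14.3 all lay below it. The value of 7.09 was the lowest of any of the 150 loci in any library. Within each early group the libraries differed by more than 2-fold, while the group means were close, at 262 ± 92.8 at 1.5 dpci and 295 ± 140 at 3 dpci (SD, n = 4 each).

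XLOC_058906, the next in rank, had early means that differed by far less than their SD, 252 ± 91.3 at 1.5 dpci and 253 ± 94.0 at 3 dpci (SD, n = 4 each). The non-injured libraries had 50.5, 18.8, 21.1 and 67.0. At 1.5 dpci the values were 192, 159, 306 and 351, and at 3 dpci 171, 308, 175 and 357. The libraries of both time points thus split into a higher and a lower pair over the same range. The late libraries overlapped the non-injured ones, with 22.0, 35.1, 19.5 and 73.0 at 7 dpci, then 66.8, 9.12, 27.7 and 20.46 at 14 dpci.

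The pair of loci with the lowest late means relative to the non-injured hearts, among those with a mean of at least 100, showed the early rise together with late values below the starting level. XLOC_033486, at rank 15, had 112, 161, 205 and 134 in non-injured libraries. It had 595, 383, 278 and 615 at 1.5 dpci and 661, 395, 362 and 308 at 3 dpci. It then had 102, 115, 135 and 55.7 at 7 dpci and 101, 46.6, 64.2 and 52.2 at 14 dpci, where every library lay below every non-injured one. The mean of its late differences from the non-injured mean was −0.92 (log2).

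XLOC_039786, at rank 42, had a narrow gap between groups. Non-injured libraries had 50.5, 129, 102 and 122. The early values were 165, 311, 216 and 189 at 1.5 dpci, then 235, 145, 133 and 315 at 3 dpci, and the lowest of these was 0.044 (log2) above the highest non-injured value. Late values were 52.1, 85.5, 73.5 and 54.8 at 7 dpci, with 35.8, 61.8, 63.3 and 34.8 at 14 dpci. Non-injured replicate 1 lay within the late range, and non-injured replicates 2 to 4 lay above it. The mean of its late differences was −0.77 (log2).

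**Figure D2:**
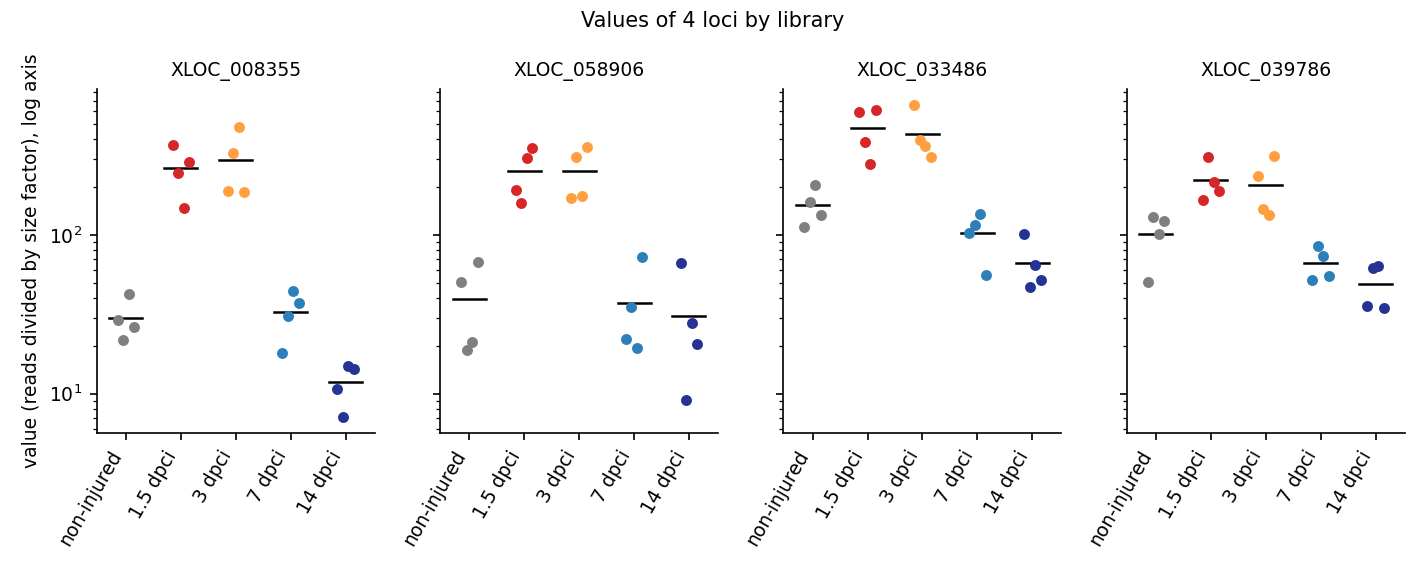
Values of XLOC_008355, XLOC_058906, XLOC_033486 and XLOC_039786 (vertical log axis, reads divided by size factor) by group (horizontal axis), with a point for each of the 4 libraries of a group and a line at their mean. In each locus all 8 early points lie above all other points, and in XLOC_008355 the 14 dpci points, from 7.09 to 14.8, lie below all others.

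The list was ordered by the size of the rise, and since the early values had to clear all others, a locus with a small rise could enter only with a small spread across that gap. Rank 25 had 1283, 1465, 1475 and 1628 in non-injured libraries, 3213, 2841, 3132 and 3409 at 1.5 dpci, then 3379, 3853, 4221 and 3589 at 3 dpci. At 7 dpci it had 1592, 1805, 1677 and 2798, so that replicate 4 alone came close to the lowest early library. At 14 dpci it had 2093, 1350, 1712 and 1869.

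Rank 50 had 221, 265, 263 and 245 in non-injured libraries, 546, 404, 579 and 506 at 1.5 dpci, then 444, 570, 672 and 460 at 3 dpci. The late values, 238, 317, 256 and 342 at 7 dpci and 179, 205, 271 and 265 at 14 dpci, overlapped the non-injured values. Rank 75, in the middle of the list, had non-injured values of 84.6, 91.8, 70.9 and 113, against which 149, 155, 152 and 186 at 1.5 dpci and 154, 167, 191 and 239 at 3 dpci form a rise of 1.93-fold. Its late values of 108, 138, 78.9 and 84.5 at 7 dpci and 98.9, 129, 123 and 99.2 at 14 dpci began inside the non-injured range and ran above it.

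Rank 100 had late groups that stood apart from each other. It had 99.8, 67.2, 63.2 and 104 in non-injured libraries, 177, 147.4, 136 and 149 at 1.5 dpci, then 162, 134, 134 and 150 at 3 dpci. At 7 dpci it had 105, 102, 122 and 131, and at 14 dpci 54.8, 62.8, 89.9 and 56.3, with no overlap between the late groups. The locus 25 ranks below it had 255, 209, 269 and 261 in non-injured libraries, with 369, 363, 382 and 437 at 1.5 dpci, 431, 445, 538 and 463 at 3 dpci, 263, 250, 211 and 277 at 7 dpci and 327, 219, 253 and 320 at 14 dpci.

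Rank 150, the last taken, had groups with little spread. Its non-injured libraries had 750, 894, 909 and 931, and its early libraries 1351, 1279, 1383 and 1311 at 1.5 dpci, then 1410, 1551, 1592 and 1608 at 3 dpci. The 7 dpci values of 1063, 1178, 963 and 1022 all lay between the non-injured and the early values, and the 14 dpci values of 871, 839, 824 and 907 fell within the non-injured range.

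Summed over each library, the 150 loci were high in every early library, as the rule demanded of each of them. They held 0.347 ± 0.0455% of the summed values of a non-injured library, 1.01 ± 0.0789% at 1.5 dpci, 0.887 ± 0.104% at 3 dpci, 0.427 ± 0.0306% at 7 dpci and 0.353 ± 0.0339% at 14 dpci (SD, n = 4 each). These shares also depend on the library totals, which ran from 2.50e+07 to 3.08e+07 in non-injured libraries and from 2.14e+07 to 2.25e+07 at 1.5 dpci. The sum of the 150 loci itself ran from 88527 to 105402 in non-injured libraries and from 207568 to 237638 at 1.5 dpci. Their mean log2 level ran between 8.27 and 8.52 in non-injured libraries, 9.42 and 9.51 at 1.5 dpci, 9.41 and 9.46 at 3 dpci, 8.38 and 8.62 at 7 dpci, and 8.23 and 8.42 at 14 dpci. By this mean the early libraries were alike within 0.1 (log2), while the 7 dpci libraries ran from within the non-injured range to above it.

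**Figure D3:**
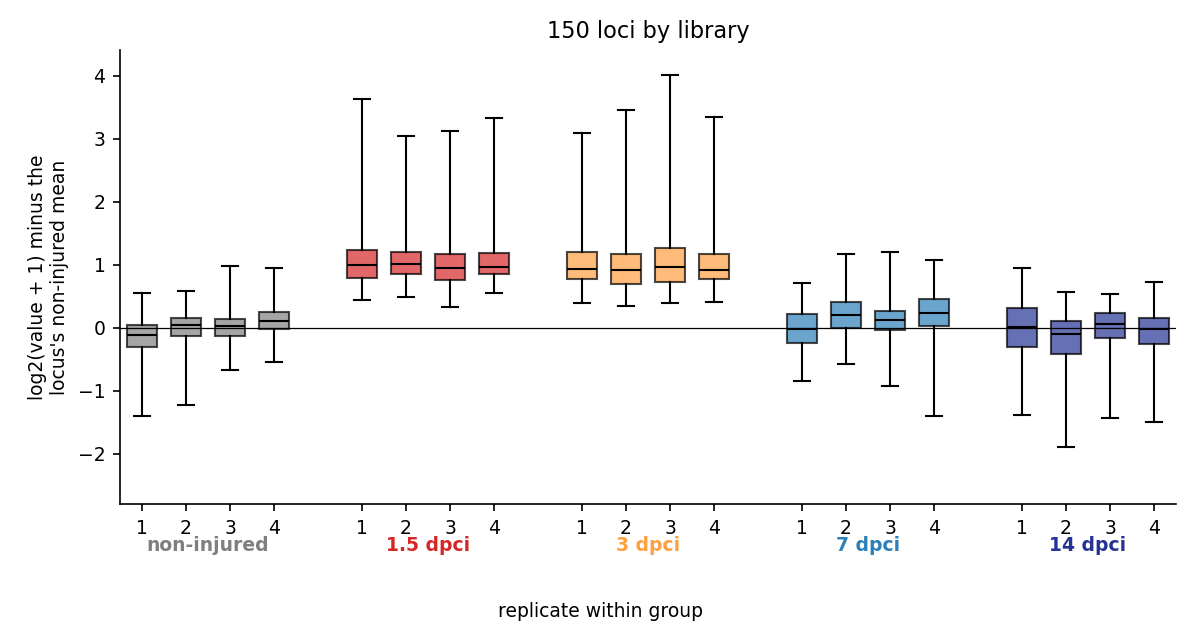
Difference of each of the 150 loci from its non-injured mean on the log2(value + 1) scale (vertical axis) in each of the 20 libraries (horizontal axis, replicates 1 to 4 within each group). Boxes show the quartiles with the median, and whiskers the lowest and highest locus; the medians of the 8 early libraries lie between 0.91 and 1.01, and those of the 8 late libraries between −0.11 and 0.24.

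The summed value leans on a few loci. The 5 with the highest means held 29.9% of the summed mean, and the highest, at rank 4, held 9.35% alone. It was singled out after its values were seen. That locus had 3023, 6758, 6345 and 4439 in non-injured libraries. It had 48094, 31058, 13165 and 25090 at 1.5 dpci and 41906, 17319, 29043 and 12899 at 3 dpci, a range of more than 3-fold within each early group. It had 4111, 9638, 9155 and 2349 at 7 dpci and 2629, 2046, 2474 and 2834 at 14 dpci. Its share of the sum of the 150 loci ran from 2.02% in 7 dpci replicate 4 up to 20.2% in 1.5 dpci replicate 1, which is why the mean log2 level, to which each locus adds equally, was given beside the share.

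Values before injury were spread widely. They are not divided by transcript length, so their spread is not one of expression between loci. The non-injured means of the 150 loci ran between 29.8 and 6319 with a median of 283, and 15 loci lay under 100, 62 between 100 and 300, 43 between 300 and 1000 and 30 at 1000 or above. None had a value of 0 in any library. The rule itself asked for a mean of at least 100 over all libraries and a non-injured mean of at least 5. Detection in the uninjured apex was thus fixed by the choice. With a non-injured mean of at least 20 the rule took the same 150 loci.

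The early time points were held alike by the rule, and within its limit of 0.5 most loci were closer than required. The means at 1.5 and 3 dpci were under 0.25 apart in 110 of the 150 loci and under 0.1 apart in 55. The mean was higher at 1.5 dpci in 87 loci and at 3 dpci in 63. This split depended on scaling, since 74 were higher at 3 dpci after rescaling by TMM (trimmed mean of M values) and 50 after quantile normalization, so neither time point is given as the higher one. At an adjusted p under 0.05 in limma, a linear model fitted to all loci, 2 loci had higher and 1 had lower values at 3 dpci than at 1.5 dpci, beside 4.86% higher and 4.57% lower (9.42% in either direction) among all loci, and the rule itself kept that count low.

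In the same model all 150 loci were called higher at 1.5 dpci and 149 at 3 dpci than in non-injured hearts, beside 12.8% and 12.9% of all 62594 loci tested. These contrasts chose the loci, and nothing is read from the counts. The median difference of the 150 loci was 0.98 at 1.5 dpci (range 0.58 to 3.06) and 0.92 at 3 dpci (0.53 to 3.19), and the median over all loci tested was 0.09 and 0.02 (log2). Against non-injured replicates 1 and 2 alone the medians were 1.04 and 1.0, and against replicates 3 and 4 alone they were 0.98 and 0.91. All 150 loci lay above 0 at both times with either pair, which the rule had fixed, since every early value had to exceed every non-injured one.

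The gap that kept the early libraries above all others was mostly narrow. The lowest early value exceeded the highest other value by between 0.00036 and 1.70 (log2) with a median of 0.17. The gap was at least 1 in 3 loci and under 0.1 in 44. The highest of the 12 other values stood in a 7 dpci library for 84 loci, in a non-injured one for 35 and in a 14 dpci one for 31. Among the 7 dpci libraries, replicate 4 held it for 42 loci and replicate 2 for 29. The same counts over other loci are not given here. Replicate 4 was also the highest of its group for 65 of the 150 loci (43.3%, beside 38.0% of the other loci with a mean of at least 100). Replicate 2 was so for 48 (32%, beside 18.3%) and replicate 1 for 12 (8%, beside 21.8%). The choice of loci leaned on replicate 4, for when 7 dpci replicate 4 was left out 449 loci met the rule instead of 246, and 81 of the 150 were taken again.

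By 7 dpci most of the 150 loci were near their level in non-injured hearts, which the rule demanded from above but not from below. At 7 dpci 108 loci had a mean above the non-injured mean and 42 below it, with a median difference of 0.16 (range −0.62 to 0.49), and 98 were less than 0.25 away. At 14 dpci 74 were above and 76 below with a median difference of −0.01 (range −1.28 to 0.49), and 94 were less than 0.25 away. More than 0.5 below the non-injured mean were 3 loci at 7 dpci and 13 at 14 dpci. The medians over all loci tested were 0 at both times.

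Taking both late groups together, 59 loci were above the non-injured mean at both, 27 below at both, 49 above at 7 and below at 14 dpci, and 15 the reverse. In limma 5 of the 150 were called higher and 1 lower at 7 dpci, beside 6.43% and 5.45% of all loci, and 2 higher and 8 lower at 14 dpci, beside 5.88% and 6.63%. The rule used these contrasts, and nothing is read from the counts. The late medians moved with the choice of controls, to 0.19 and 0.05 with non-injured replicates 1 and 2 and to 0.07 and −0.11 with replicates 3 and 4. The 150 loci were themselves higher in non-injured replicates 3 and 4 than in 1 and 2 in 98 cases, by a median of 0.12 (log2), beside 8884 of 16049 other loci with a mean of at least 100 and a median of 0.04. What part of the late differences this split makes up was not tested.

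The rule set the same ceiling for 7 and 14 dpci and did not compare them with each other, but it used all 8 late libraries, and for the 84 loci named above a 7 dpci value was the one nearest to the early values. The comparison of the late groups is thus not free of the choice of loci, and its counts describe these 150 and support nothing about them. Between the late groups, 117 of the 150 loci had the lower mean at 14 dpci and 33 the higher. The median difference of 14 minus 7 dpci was −0.14 (range −1.38 to 0.49), whereas it was 0.02 over the other 16049 loci with a mean of at least 100, of which 7675 were lower, and −0.01 over all loci tested. All 4 libraries of 14 dpci lay below all 4 of 7 dpci in 23 of the 150 loci, beside 2.88% of all loci and 4.09% of those with a mean of at least 100. They lay above in 1 of the 150, beside 2.80% and 5.08%.

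No single locus passed the threshold in this comparison. In limma with adjustment over all 62594 loci, 0 of the 150 were called at an adjusted p under 0.05, beside 0.404% of all loci. The lowest adjusted p was 0.0528, at rank 127, a locus picked for that value. Its libraries had 5244, 4066, 3865 and 3813 at 14 dpci against 5271, 7198, 6280 and 6207 at 7 dpci. At an unadjusted p under 0.05 there were 32 lower and 3 higher loci among the 150, beside 6.43% lower and 4.78% higher over all loci. On the reads recovered from 19 libraries, edgeR's quasi-likelihood test called 2 of the 150, beside 0.344% of all loci. The limma count was 5 without 7 dpci replicate 1, 3 without non-injured replicate 1, and between 0 and 2 without any other library. The 0.404% belongs to the model of all libraries, and the shares of all loci without each library are not given here.

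Of the loci shown above, XLOC_008355 had the largest difference between the late groups. Its 14 dpci libraries had 10.7, 7.09, 14.8 and 14.3 and its 7 dpci libraries 18, 30.7, 44.3 and 37.5, without overlap. The difference was −1.38 ± 0.35 (log2, SE), with an adjusted p of 0.0884 in limma. Without 7 dpci replicate 1 it was −1.63 with an adjusted p of 0.0495, and over the alternatives run the adjusted p ran between 0.0495 and 0.284. XLOC_033486 and XLOC_039786 had differences of −0.61 ± 0.32 and −0.46 ± 0.32 (SE), with adjusted p of 0.492 and 0.669. XLOC_058906 differed by −0.39 ± 0.52 (SE) with an adjusted p of 0.882. In these 3 loci the late groups overlapped, and the differences did not pass the threshold.

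**Figure D4:**
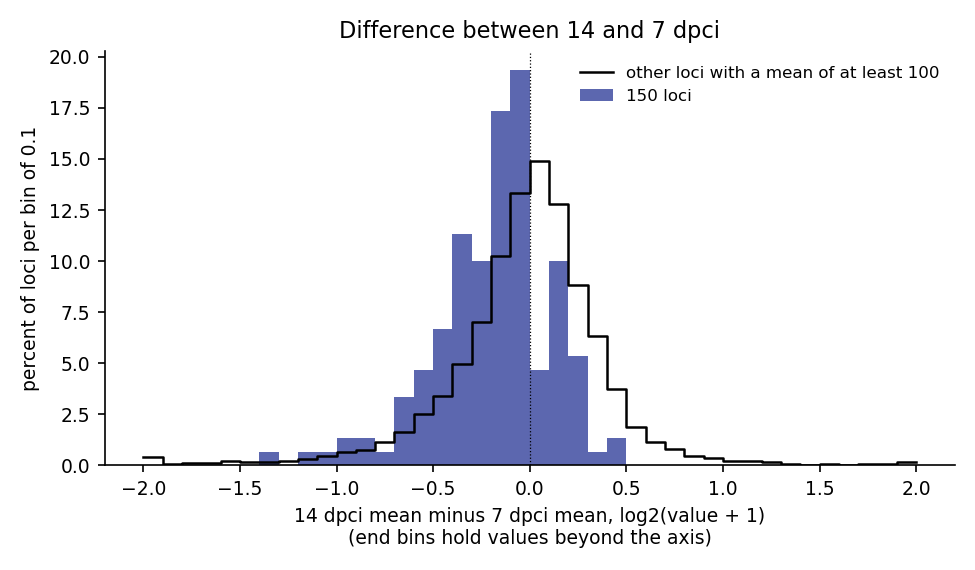
Difference between the 14 dpci and the 7 dpci mean on the log2(value + 1) scale (horizontal axis, bins of 0.1) against the percent of loci per bin (vertical axis). Bars show the 150 loci, of which 117 lie below 0 with a median of −0.14, and the line shows the other 16049 loci with a mean of at least 100, with a median of 0.02.

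Some of the 150 loci stood close together in the numbering of the merged assembly, in which numbers are given to loci and a gene can be broken over several of them. Within 5 numbers of another were 25 loci, in 10 groups, and all others stood alone. Positions in the genome are not used here, because the list of positions is out of order like that of the names. The numbering carried some likeness all the same. For loci with a mean of at least 100, log2(value + 1) was correlated between pairs of loci over the 20 libraries. The median correlation was 0.22 for 6356 pairs 1 number apart and 0.11 for 5018 pairs 5 apart. It was 0.03 for 4200 pairs 50 apart and 0.00 for 4131 pairs 500 apart. These correlations include the differences between groups. Pairs at every distance share libraries and depth. Loci close in number may also share reads of one transcript, which was not tested.

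The largest group held 5 of the 150 loci within 6 consecutive numbers, at ranks 38, 76, 104, 51 and 97 in the order of the numbers. The summed value of these 5 loci was 663, 812, 629 and 675 in non-injured libraries. It was 1790, 1229, 1004 and 1439 at 1.5 dpci and 1540, 1538, 1308 and 1057 at 3 dpci, then 495, 541, 725 and 596 at 7 dpci and 467, 515, 623 and 482 at 14 dpci. Both early groups lay wholly above the rest, which the rule demanded of each of the 5. The late groups, 7 dpci replicate 3 apart, lay below the non-injured range. The locus of the run that was not taken had a mean of 39.5, under the minimum of 100. The lowest of its early values minus the highest of its others was −0.0049 (log2), so these overlapped. Its differences of 0.82 at 1.5 dpci and 0.94 at 3 dpci were like those of the other 5, which ran between 0.81 and 1.14 and between 0.85 and 1.10.

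Those 5 loci also deviated together between libraries of one group. Their 10 pairwise correlations of deviations from the group means lay between 0.69 and 0.86 over 20 libraries. By the same measure all 11175 pairs of the 150 loci had a median of 0.10. Pairs of other loci with a mean of at least 100 had a median of 0.02. Loci of one run may be pieces of one transcript. Each is still counted as a locus of its own in every count given here, and the number of genes behind the 150 loci is not known.

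Loci beside the 150, whose number was 1 away, are rows that the rule had not taken. They are not independent of the choice. Loci 1 number apart had a median correlation of 0.22 at a mean of at least 100, and may share reads of one transcript. There were 285 of them, of which 5 had a value of 0 in every library and 280 were tested. At 1.5 dpci 76 (27.1%) were called higher than in non-injured hearts in limma, beside 12.8% of all loci, and 18 (6.43%) lower, beside 10.1%. At 3 dpci 64 (22.9%) were called higher, beside 12.9%, and 20 (7.14%) lower, beside 10.4%. Their median differences were 0.40 and 0.37 (log2), and 0.09 and 0.02 over all loci tested. Against non-injured replicates 1 and 2 alone, 51 neighbours were called higher at 1.5 dpci and 46 at 3 dpci, and against replicates 3 and 4 alone there were 62 and 44. The shares of all loci against these pairs are not given here, so these 4 counts have no background beside them.

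At the late times the neighbours were close to the background in the model of all 20 libraries. At 7 dpci 18 (6.43%) were called higher, beside 6.43% of all loci, and 12 (4.29%) lower, beside 5.45%. At 14 dpci 11 (3.93%) were called higher, beside 5.88%, and 14 (5%) lower, beside 6.63%. The late counts changed with the libraries used, and the shares of all loci in those altered models are not given here. Against non-injured replicates 1 and 2 alone, 4 neighbours were called higher at 7 dpci and 2 at 14 dpci, and against replicates 3 and 4 alone there were 17 and 19. At 7 dpci 10 were called higher without non-injured replicate 3, 12 without non-injured replicate 4 and 11 without 7 dpci replicate 2. At 14 dpci there were 5 without non-injured replicate 3, 6 without non-injured replicate 4, 7 without 14 dpci replicate 4 and 17 without non-injured replicate 2.

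**Figure D5:**
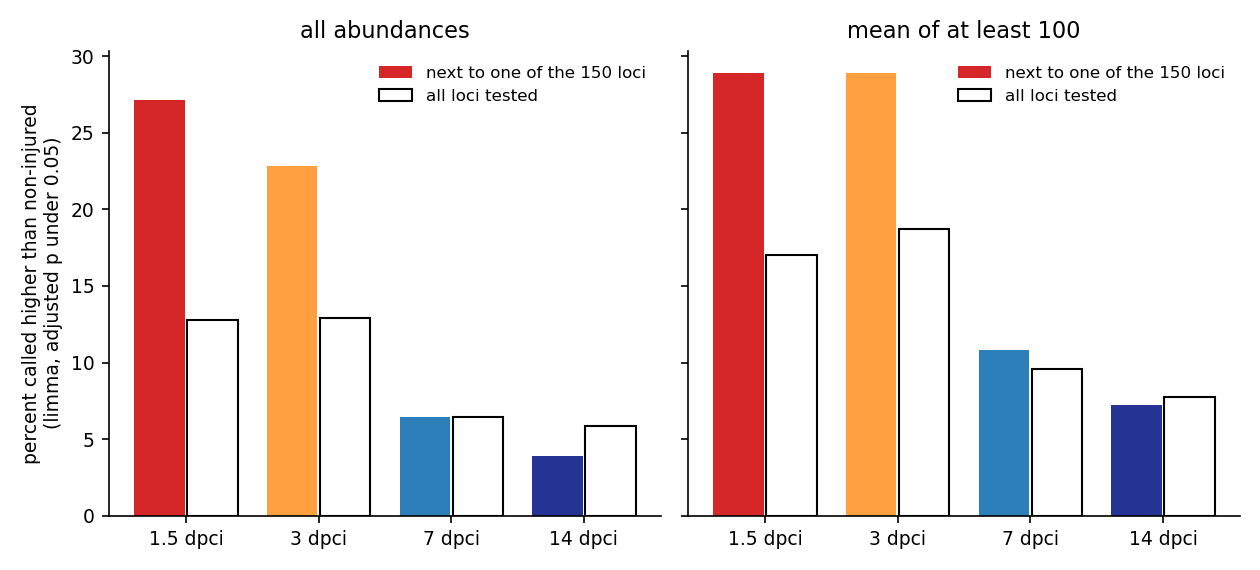
Percent of loci called higher than in non-injured hearts by limma at an adjusted p under 0.05 (vertical axis) at each time after cryoinjury (horizontal axis), for loci 1 number away from one of the 150 (filled bars) and for all loci tested (open bars). The left panel holds all abundances (280 neighbours, 62594 loci) and the right panel loci with a mean of at least 100 (83 neighbours, 16199 loci); the filled bars are the taller ones at 1.5 and 3 dpci in both panels.

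Most neighbours had low values, with a median mean of 22.0. Among the 83 with a mean of at least 100, 24 (28.9%) were called higher at 1.5 dpci and 24 (28.9%) at 3 dpci, beside 17.0% and 18.7% of all loci with such a mean. Their median differences, 0.11 and 0.19 (log2), were smaller than those of all 280 neighbours, and the medians over all loci with such a mean were −0.06 and −0.04. In the same loci 13 (15.7%) and 12 (14.5%) were called lower, beside 24.2% and 23.2%. At 7 dpci 9 of them (10.8%) were called higher and 5 (6.02%) lower, beside 9.59% and 8.32%, and at 14 dpci 6 (7.23%) higher and 7 (8.43%) lower, beside 7.78% and 9.03%. Of 1062 loci 2 to 5 numbers away, 219 (20.6%) were called higher at 1.5 dpci and 181 (17.0%) at 3 dpci, which lies between the nearest neighbours and all loci. Called lower were 98 (9.23%) and 112 (10.5%), beside the 10.1% and 10.4% of all loci. Among the 373 with a mean of at least 100, 74 (19.8%) were called higher at each time, beside 17.0% and 18.7%, and 79 (21.2%) and 80 (21.4%) lower, beside 24.2% and 23.2%. In 15 neighbours all 8 early values lay above the other 12, and none met the whole rule. Among loci with a mean of at least 100 and a non-injured mean of at least 5, this held for 434 of 16187. No such share is given here for loci as low as most neighbours, so nothing is read from the 15. Whether a neighbour rose as part of the same transcript as the locus beside it was not tested.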

How the data were processed

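Stranded total RNA libraries of heart apexes were sequenced, aligned to GRCz10 with Ensembl annotation 90 and put through Cufflinks, Cuffmerge and Cuffdiff by a service provider of the authors. The values the authors deposited are a signal, reads per locus scaled by the size factor of the library, not the FPKM their methods name. Whole reads were recovered for 99.96% to 99.99% of the values above 0 (tolerance 0.1 read) in 19 libraries, between 19349169 and 32939802 reads each. In 7 dpci replicate 1 the step was too close to 1. Gene names fill 42278 of 66128 rows in another order than the values and were not used. No columns of the authors' own comparisons were used.

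Groups were compared in R 4.3.3 with limma 3.58.1 (trend and robust) on log2(value + 1), leaving 62594 loci after those at 0 throughout were dropped, in 1 model of 20 libraries, with Benjamini-Hochberg adjustment and a threshold of 0.05. This scale makes the folds of low loci too small. Because the values are a signal, edgeR 4.0.16 served only as an alternative. Scripts were tested on simulated data. The loci, the list and the rules were chosen with earlier results of these data known. Named are the 2 loci with the largest rise and the 2 with the lowest late mean relative to non-injured hearts among those with a mean of at least 100; others are given by rank at steps of 25. No pathway list could be matched to rows. Nothing in the labels says that replicates came from separate experiments beyond separate pools of apexes, and p-values measure the spread between these libraries. Alternatives were other scalings, pseudocounts, filters, controls, neighbour distances and rule limits, leaving out each library, and a replicate block. The fit on 19 libraries and the neighbours 2 to 5 numbers away with a mean of at least 100 were added after seeing the data.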

Additional observations from a re-analysis of the deposited data

How the results depend on the processing

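Counts of calls are at an adjusted p under 0.05. Among the altered models, a share over all loci is given only for edgeR at 14 against 7 dpci (0.344%). The other counts show how the calls moved and have no background beside them. Of the 150 loci, limma called 0 between 14 and 7 dpci, and 1 after quantile normalization, 6 with a filter (a value of at least 10 in at least 4 libraries), 5 where non-injured replicates 3 and 4 were the sole controls in the model, 2 in edgeR and 5 in limma on 19 libraries. Neighbours called higher at 7 dpci numbered 5 with only the 8 libraries compared, 4 against non-injured replicates 1 and 2 alone and 11 in edgeR. At 14 dpci they numbered 3, 2 and, against replicates 3 and 4 alone, 19. Under the 2 other definitions, 219 loci 2 to 5 numbers away and 24 with a mean of at least 100 were called at 1.5 dpci, and 181 and 24 at 3 dpci, out of other totals. The median difference at 1.5 dpci was 1.02 after quantile normalization and 1.04 against non-injured replicates 1 and 2, which gave 1.0 at 3 dpci. At 14 dpci it was −0.11 with replicates 3 and 4. Applied again, the rule kept 91 of the 150 loci after quantile normalization, 89 with late means up to 1 above non-injured and 74 with no demand on overlap.

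Without each library in turn, the count at 14 against 7 dpci ran between 0 and 5, and neighbours called higher between 58 and 78 at 1.5 dpci, 48 and 70 at 3 dpci, 10 and 21 at 7 dpci, then 5 and 17 at 14 dpci. Median differences ran between 0.95 and 1.01, 0.89 and 0.96, 0.10 and 0.19, and −0.06 and 0.03 at the same times, and the loci kept between 81 (without 7 dpci replicate 4) and 147. XLOC_058906 at 14 against 7 dpci ran between −0.86 without 14 dpci replicate 1 and 0.050, a reversal, without 14 dpci replicate 2. Where the cause is not given by fewer loci or libraries, the cause was not tested. Samples of different groups are linked only by a replicate number in their labels. Correlations of same-numbered deviations ran between −0.33 and 0.37, and pairs with different numbers were not compared. Whether same-numbered samples share more than the number was therefore not tested. With the replicate number as a block, 1 of the 150 loci was called at 14 against 7 dpci, and no neighbour count moved by over 1.5 times. The 150 loci had reads in every library, with a lowest value of 7.09. The neighbours had a median mean of 22.0, and what size of change could be detected at that level was not measured.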

Other observations

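Among the 30 groups of 4 values put to Dixon's criterion, none held a library far from the other 3. Since the loci were chosen by their values, that count is not set against chance, and nothing is read from it. These 30 were not all groups of the 150 loci. Rank 136, for instance, had 209, 209, 229 and 590 at 1.5 dpci. The criterion looks for a single far library and cannot show a split into pairs like that of the non-injured libraries. Loci next to the 150 were also compared between the late groups, where limma called 0 of 280 at 14 against 7 dpci and their median difference was −0.11 (log2), beside −0.01 over all loci tested.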
